A study of Mus musculus with 9 samples.

Results

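The Hox genes of the mouse lie in 4 clusters, HoxA on chromosome 6, HoxB on chromosome 11, HoxC on chromosome 15 and HoxD on chromosome 2. Members were the 39 protein-coding genes whose symbols are Hoxa, Hoxb, Hoxc or Hoxd with a number, of 21627 protein-coding genes on the autosomes and X: 11 in HoxA, 10 in HoxB, 9 in HoxC and 9 in HoxD. The 1-kb tiles of 4 intervals that enclose these genes were also members, 537 in all, and 536 of them held a listed CpG, of 2415007 such tiles in the genome. In build GRCm38 the intervals span chr6:52150001-52265000, chr11:96190001-96375000, chr15:102915001-103042000 and chr2:74660001-74770000. Both sets were chosen by name and position, not by methylation.

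DNA methylation was read by whole-genome bisulfite sequencing in frozen punches of the nucleus accumbens, a part of the ventral striatum that serves reward and motivation. The 9 mice were C57BL/6J males of 8 weeks, 5 labelled Control (numbers 2, 3, 4, 5 and 8) and 4 labelled Susceptible (numbers 2, 3, 6 and 7). Every library carries the same treatment text, 10 daily defeats by an aggressive CD1 male, and the sources used here do not say how Control mice were handled or how susceptibility was scored. Punches hold neurons and glia together, and a level is an average over them. A level here is the share of calls at CpGs that stayed cytosine after bisulfite, which counts hydroxymethylated cytosines too.

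Hox genes encode homeodomain transcription factors that give cells of the embryo their position along the body axis. Within a cluster, genes at the 3′ end are used in the hindbrain and genes at the 5′ end in progressively more posterior spinal cord and in limbs and the genital region. The forebrain, to which the nucleus accumbens belongs, forms in front of the domain of Hox expression. In tissues that do not use them the clusters are known as long CpG-rich domains that are bound by Polycomb complexes and carry little DNA methylation.

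To show how differently CpGs are spread at Hox starts, 4 promoters are printed, from 250 bases before to 50 bases after the gene start. They are those with the lowest and the highest start window in HoxA and in HoxD, among genes with an entry in the RefSeq promoter table (GRCm38.p6), which held 22 of the 39 Hox genes. Each runs 5′ to 3′ on the strand of its gene, and capitals mark the CpGs. Hoxa13 (minus strand) lies at chr6:52260831-52261130, Hoxa7 (minus strand) at chr6:52218524-52218823, Hoxd3 (plus strand) at chr2:74711743-74712042 and Hoxd4 (plus strand) at chr2:74721728-74722027.
Hoxa13: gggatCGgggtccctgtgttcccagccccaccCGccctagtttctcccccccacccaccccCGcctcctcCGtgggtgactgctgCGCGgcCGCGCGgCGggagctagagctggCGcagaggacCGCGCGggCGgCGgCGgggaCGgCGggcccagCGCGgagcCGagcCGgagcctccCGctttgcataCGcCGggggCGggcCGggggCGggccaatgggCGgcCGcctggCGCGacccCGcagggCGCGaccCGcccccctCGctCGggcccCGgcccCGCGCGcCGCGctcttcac
Hoxa7: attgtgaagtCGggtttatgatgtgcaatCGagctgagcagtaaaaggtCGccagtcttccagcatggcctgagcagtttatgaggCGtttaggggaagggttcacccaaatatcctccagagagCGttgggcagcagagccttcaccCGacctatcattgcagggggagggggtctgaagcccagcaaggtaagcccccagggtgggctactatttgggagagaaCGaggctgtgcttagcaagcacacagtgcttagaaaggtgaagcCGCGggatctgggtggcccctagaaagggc
Hoxd3: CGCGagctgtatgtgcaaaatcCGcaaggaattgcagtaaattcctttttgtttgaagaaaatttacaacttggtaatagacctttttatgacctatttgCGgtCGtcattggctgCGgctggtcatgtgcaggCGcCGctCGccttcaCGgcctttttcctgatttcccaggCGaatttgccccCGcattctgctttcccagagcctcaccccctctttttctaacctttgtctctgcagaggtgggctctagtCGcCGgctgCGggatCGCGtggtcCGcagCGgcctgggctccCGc
Hoxd4: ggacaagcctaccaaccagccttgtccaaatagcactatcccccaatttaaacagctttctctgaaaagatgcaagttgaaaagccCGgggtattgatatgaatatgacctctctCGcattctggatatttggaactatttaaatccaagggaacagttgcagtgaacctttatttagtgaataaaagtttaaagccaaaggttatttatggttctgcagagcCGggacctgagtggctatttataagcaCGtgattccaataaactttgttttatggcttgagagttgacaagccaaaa
The motif searched was CG, which reads the same on both strands. The Hoxa13 stretch holds 45 of them, a number reached by 1.93% of the 32851 promoters in the table, and its level over the 9 libraries was 2.17% ± 0.937 (SD). Its CpGs at bases 33 to 223 were each listed in 1 to 4 libraries, with 10 to 42 calls. Those from base 227 on were listed in 6 to 8 libraries, so the level leans on that end. The CpG at base 170 read 100%, from 18 calls in 1 library. The Hoxd3 stretch holds 20, reached by 26.5% of promoters, and read 1.76% ± 1.21, with 18 of the 20 listed in at least 1 library. The Hoxa7 stretch holds 9, reached by 45.8% of promoters, and read 8.12% ± 4.83. The Hoxd4 stretch holds 4, reached by 68.6% of promoters, and read 14.8% ± 6.18. In the Hoxd4 stretch the CpGs at bases 87, 116, 224 and 251 read 6.51%, 17.01%, 42.8% and 5.29% of pooled calls, so a single CpG, covered by 138 calls in all, stood well above the other 3.

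The clusters also hold microRNA genes of 2 families that repress Hox and other transcripts, and their mature sequences are printed because members of a family lie in different clusters but share a seed, the capitals (bases 2 to 8), which pairs with targets.
mmu-miR-10a-5p: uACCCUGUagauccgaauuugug
mmu-miR-10b-5p: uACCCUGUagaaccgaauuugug
mmu-miR-196a-5p: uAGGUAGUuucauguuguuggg
mmu-miR-196b-5p: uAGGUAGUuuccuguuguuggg
The sequences are from RefSeq. The windows of 1 kb on each side of the hairpins read 6.25% ± 2.32 (SD) at Mir10a in HoxB and 8.74% ± 2.22 at Mir10b in HoxD. For the other seed they read 4.67% ± 1.24 at Mir196a-1 in HoxB, 6.21% ± 2.06 at Mir196a-2 in HoxC and 4.32% ± 0.949 at Mir196b in HoxA. Mir615, which lies within Hoxc5, had the highest of the 6, at 10.7% ± 2.26. Differences between the groups ran from -2.15 points at Mir615 to +1.71 points at Mir10b, and none passed (exact permutation tests with Benjamini-Hochberg adjustment over the 6 loci, lowest adjusted p = 0.548). Without Susceptible 6, Mir615 gave -1.27 points and Mir10b +0.50, and without Control 5 Mir10b gave +0.997.

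Listed calls per library ran from 313475624 to 570984634, every Susceptible library above every Control library, and counting error is small for the summed Hox intervals, which had 47392 to 123868 calls per cluster and library. Whether repeated reads of a molecule were removed is not stated, so counting error here assumes independent calls. In Control 5 and Control 8 the squared difference between the strands of a CpG was 18.6 and 19.8 times what binomial counting gives. It was 2.39 to 6.13 times in the other libraries. This was taken at CpGs with both strands listed and a level of 20 to 80%, so CpGs of low level are left out of it. Mitochondrial CpGs of Control libraries read 3.06% ± 0.513 (SD, n = 5) methylated and those of Susceptible libraries 12.4% ± 3.01 (SD, n = 4) (exact permutation p = 0.00794), and the part of this difference in the low Hox levels was not tested. Start windows of marker genes of the tissue were low for striatal neurons, with a median of 8.15% over 8 genes, and higher for cortical projection neurons (19.1%), oligodendrocytes (67.9%), astrocytes (69.3%) and microglia (85.7%), with 4 genes each. Drd1 and Drd2, the dopamine receptors that define the classes of striatal projection neuron, read 9.84% and 16.0%.

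All 4 clusters were low in methylation against the DNA around them. Over the 9 libraries the level was 5.93% ± 0.544 (SD) in HoxA, 15.2% ± 0.788 in HoxB, 8.13% ± 0.760 in HoxC and 7.57% ± 0.513 in HoxD. The 200 kb on each side read 67.4%, 67.6%, 59.1% and 65.3%. Inside minus flank was thus -61.5 points for HoxA, -52.3 for HoxB, -51.0 for HoxC and -57.8 for HoxD, and it was negative in 9 of 9 libraries for each cluster (exact sign-flip permutation test over libraries, adjusted p = 0.00391, the smallest that 9 libraries can give). CpGs were denser inside, from 20.03 per kb in HoxB to 27.9 in HoxA, against 8.32 to 12.5 in the flanks.

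The borders of the low domains differed by side. At the 3′ ends of HoxB, HoxC and HoxD, next to Hoxb1, Hoxc4 and Hoxd1, the first 10 kb outside the interval read 77.1%, 77.6% and 83.9%. At the 5′ ends, next to the group 13 genes, they read 13.3% for HoxA, 16.98% for HoxB, 15.4% for HoxC and 4.68% for HoxD. Beyond HoxD the low stretch reached Evx2, a homeobox gene of the even-skipped family, whose start window read 5.11%. Evx1, its counterpart beyond HoxA, read 3.48%, but the low stretch of HoxA did not run on. From 10 to 40 kb past that end the steps of 10 kb read 76.1, 47.1 and 85.9%, and 40 to 50 kb past it read 10.95%. These borders are a description, since the intervals were set by position.

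**Figure D1:**
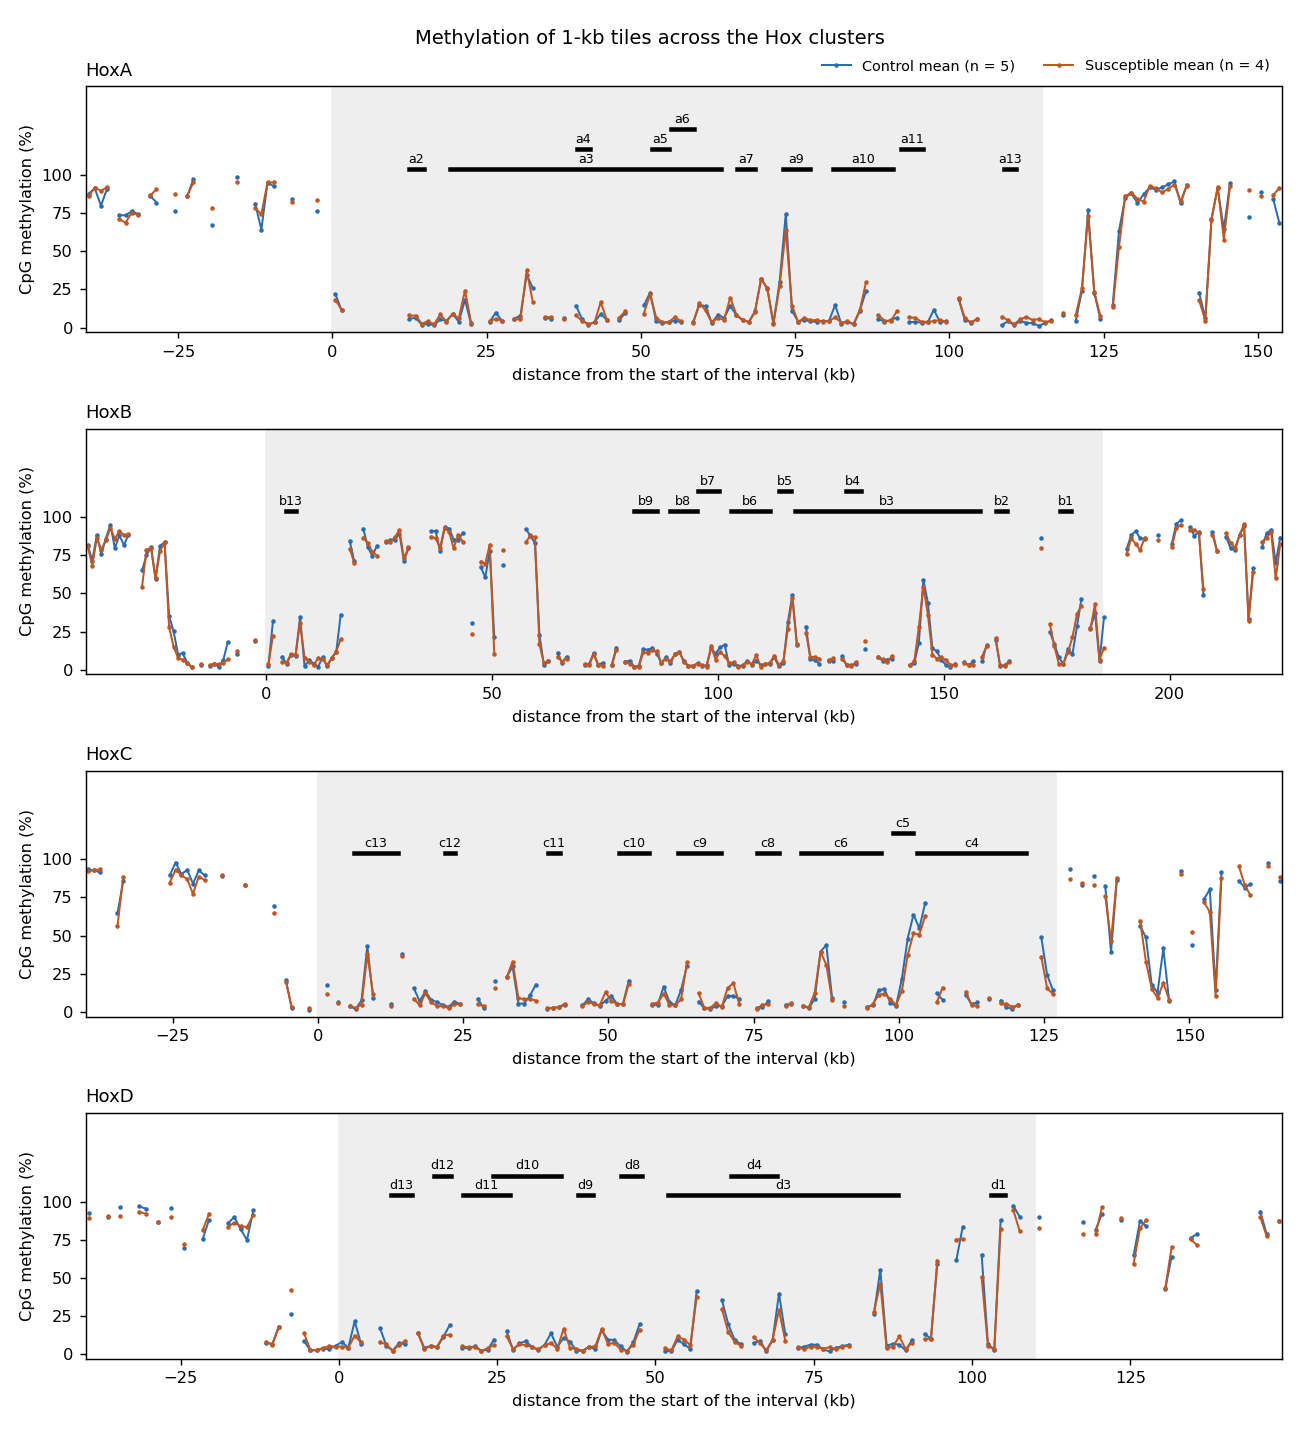
Mean CpG methylation (%) of tested 1-kb tiles along each cluster and 40 kb of flank, by distance in kb from the start of the interval (grey), with Control (blue, n = 5) and Susceptible (orange, n = 4) group means and Hox gene bounds as black bars, and with a gap in the lines where tiles were not tested or are not shown. The grey intervals stay low except for the stretch between Hoxb13 and Hoxb9, a short run over Hoxc4 and Hoxc5, the Hoxb1 end of HoxB, the Hoxd1 end of HoxD and a few single peaks. The group lines run close together.

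Of the 537 tiles, 416 met a minimum of 3 CpGs and of 20 calls per library and were tested. Under 10% methylated were 267 of the 416 (64.2%), against 2.27% of the 1041809 tiles tested in the genome. At 50% or above were 41 (9.86%), against 94.0% of all tiles. The median Hox tile read 6.75%, and the median of all tiles was 88.8%. By cluster the tiles under 10% were 70 of 95 in HoxA, 78 of 144 in HoxB, 60 of 91 in HoxC and 59 of 86 in HoxD.

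CpG density differs between Hox tiles and the genome, so tiles were also compared within classes of density, which were chosen after the tile levels had been seen. With 3 to 9 CpGs the 64 Hox tiles averaged 30.8% and other tiles 86.1%. With 10 to 19 CpGs the 112 Hox tiles averaged 27.0%, against 84.1%, and with 20 to 39 CpGs the 147 Hox tiles averaged 8.98%, against 73.6%. With 40 or more the 93 Hox tiles averaged 3.84%, against 11.7%. Hox tiles averaged lower in 9 of 9 libraries in each class (exact sign-flip permutation test, adjusted p = 0.00391). In the densest class the medians ran the other way, 3.43% in Hox tiles and 2.22% elsewhere, and 97.8% of Hox tiles and 79.96% of other tiles were under 10%. The sparse classes differed most between clusters: with 3 to 9 CpGs, HoxA tiles averaged 13.7%, HoxC 23.0%, HoxB 36.5% and HoxD 48.0%.

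**Figure D2:**
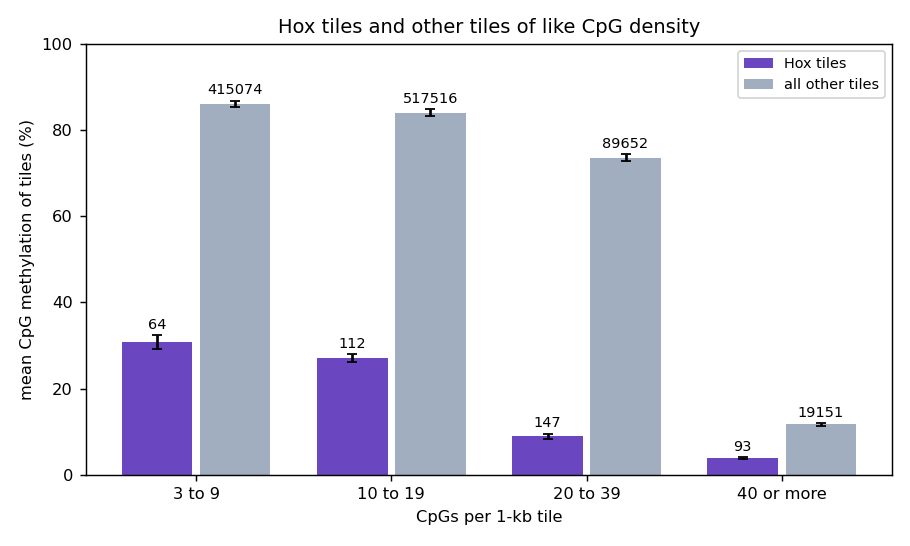
Mean CpG methylation (%) of Hox tiles (purple) and all other tested tiles (grey) by number of CpGs per 1-kb tile, with bars at the mean over 9 libraries of each library's tile mean, error bars of 1 SD over libraries and the number of tiles above each bar. Hox tiles averaged 30.8, 27.0, 8.98 and 3.84% in the 4 classes, below other tiles in each.

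The methylated tiles lay in a few places. HoxB held 29 of the 41 tiles at 50% or above, HoxD 8, HoxC 3 and HoxA 1. In HoxB 27 of them lay in the gene-poor stretch between Hoxb13 and Hoxb9, where 54 tiles were tested and 19 read under 10%: 20 tested tiles over chr11:96208001-96234000 averaged 83.6%, and the whole 74.7 kb between the bounds of the genes read 35.3% ± 1.71 (SD, n = 9). The 2 highest HoxB tiles, at chr11:96229001-96230000 and chr11:96230001-96231000, lie in that stretch. The first ranged over libraries from 86.7 to 99.2% and the second from 88.5 to 95.9%. Single methylated tiles lay within Hoxb3 (56.9%) and between Hoxb2 and Hoxb1 (83.5%).

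In HoxD the methylated tiles lay at the 3′ end, apart from 1 within Hoxd3 at 51.3%. Tiles over the long noncoding RNA gene Haglr (chr2:74754001-74762000) averaged 66.5%, the tiles at the Hoxd1 start dropped to 4.55%, and those past it (chr2:74764001-74768000) averaged 89.1%. The highest of all Hox tiles, chr2:74766001-74767000, read from 94.0 to 100% in Control and from 89.8 to 98.3% in Susceptible libraries, so the groups overlapped. Its neighbour chr2:74767001-74768000 read from 79.6 to 100% and from 74.6 to 85.6%. In HoxC the highest 2 were chr15:103019001-103020000 in Hoxc4 and chr15:103017001-103018000 in Hoxc5, with means of 71.1 and 63.8% in Control and 62.7 and 51.5% in Susceptible libraries. Over libraries they ranged from 47.4 to 84.2% and from 42.2 to 80.1%, and the groups overlapped in both.

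HoxA had a single tile at 50% or above, chr6:52223001-52224000, within the bounds of Hoxa9, a gene of posterior axial identity and of blood progenitors. Control 2, 3, 4, 5 and 8 read 72.5, 72.7, 80.1, 68.4 and 79.4%, and Susceptible 2, 3, 6 and 7 read 53.7, 66.1, 65.7 and 70.2%. Susceptible 7 lay above Control 5, so the groups overlapped, and the unadjusted p of 0.0178 in the tile test did not pass adjustment (adjusted p = 0.997, quasi-binomial model with limma's variance moderation). The other highest HoxA tile, in Hoxa3 at chr6:52181001-52182000, ranged over libraries from 13.6 to 50.6%. Low stretches without a tile at 50% were long: 101 kb in HoxC, 85 kb in HoxB, 85 kb in HoxD, and 73 and 41 kb in HoxA.

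The clusters differed from each other in level. All 6 pairs kept their sign in 9 of 9 libraries (exact sign-flip permutation test, adjusted p = 0.00391). HoxB stood above HoxC by 7.12 ± 0.505 points (SD, n = 9) and above HoxD by 7.68 ± 0.590. Over the whole intervals HoxA was the lowest, at -9.32 points from HoxB, -2.20 from HoxC and -1.64 from HoxD. In tiles of 20 or more CpGs HoxA read 5.02% ± 0.548 (SD, n = 9), above HoxD at 4.27% ± 0.437. HoxB at 7.59% and HoxC at 5.46% still lay above HoxA in those tiles. HoxC stood above HoxD by only 0.562 ± 0.308 points over the whole intervals. In tiles under 20 CpGs it lay below, at 18.9% ± 1.82 (SD, n = 9) against 28.2% ± 2.45 in HoxD. The levels of tiles under 20 CpGs sum calls over tested and untested tiles. Pairs of clusters were not tested within these classes of tiles. The top rank of HoxB over the whole intervals rests on the stretch between Hoxb13 and Hoxb9. Without it HoxB read 7.27% ± 0.449 (SD, n = 9), which was -0.860 points from HoxC and -0.298 points from HoxD (exact sign-flip permutation tests, adjusted p = 0.00469 and 0.0117). That stretch was singled out after the levels had been seen.

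Start windows, the 1 kb on each side of a gene start, were low in nearly all Hox genes. The table gave a start for 22 genes, and for the other 17 the CpG-richer end of the gene stood in, since its strand was not given. Where a gene had several starts, only the most upstream was read, and the same rules served for all other genes. The Hoxa3 window lies past Hoxa4, Hoxa5 and Hoxa6, and the Hoxd3 window lies 5′ of Hoxd4. That of Hoxc4 lies inside the bounds of the gene. Hoxa3, Hoxd3 and Hoxc4 nonetheless count as 3′ genes below. Of the 39 windows, 26 were under 5% and 36 under 10% (92.3%), against 52.4% of the 19382 protein-coding genes tested. The median Hox window read 3.93%, against 8.87% for all genes, and the range over the members was 2.26 to 14.96%. The genes at 10% or above by these windows were Hoxa7, Hoxc6 and Hoxd4. By the strand that the other genes of the cluster share, Hoxc6 would read 4.91%, Hoxb2 10.9% and Hoxb3 24.0%. The windows of Hoxb5 and Hoxb6 overlap and share CpGs.

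**Figure D3:**
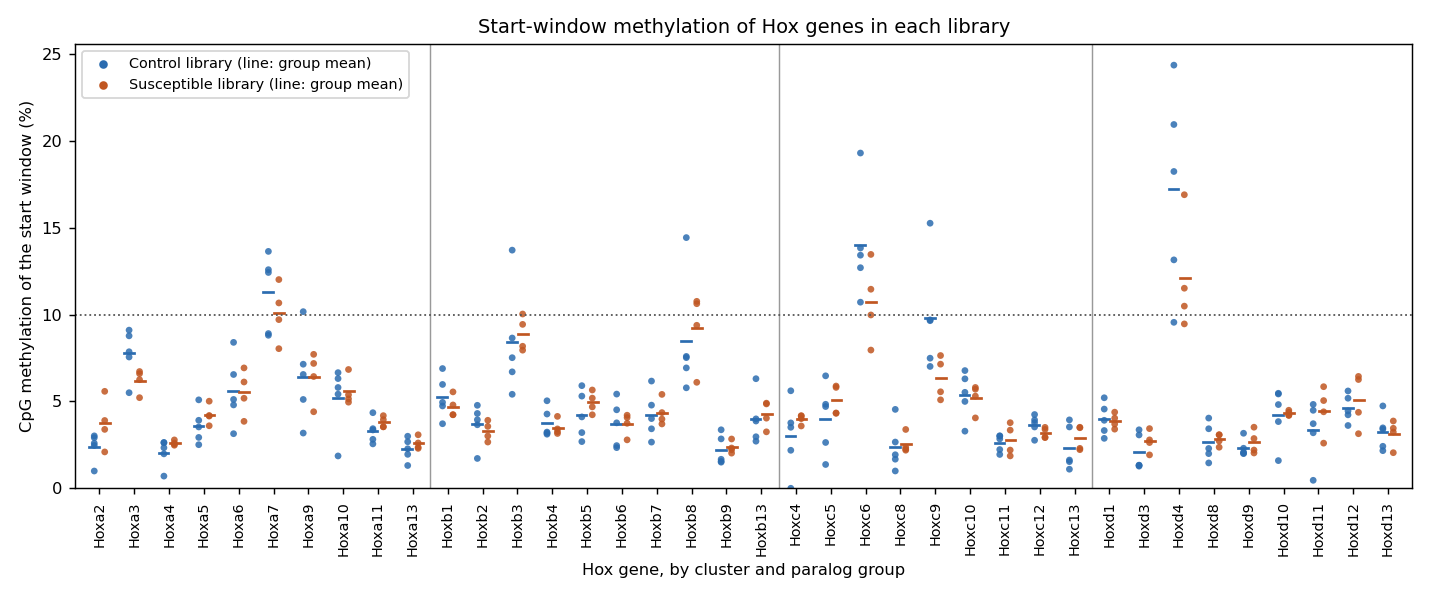
CpG methylation (%) of the start window of the Hox genes reported here, ordered by cluster and paralog group, with a point for each Control (blue) and Susceptible (orange) library, lines at the group means and a dotted line at 10%. Hoxd4 spans the widest range, 9.46 to 24.4%, and most genes sit below 6% in both groups.

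In HoxA the lowest window was that of Hoxa4, a gene of the cervical region, at 2.30% ± 0.642 (SD, n = 9). Control 2, 3, 4, 5 and 8 read 2.62, 2.64, 1.98, 0.701 and 2.33%, and Susceptible 2, 3, 6 and 7 read 2.61, 2.48, 2.53 and 2.78%. Control 5 alone lay well below the rest. The highest was Hoxa7, a gene of the thoracic region, at 10.8% ± 1.99 (SD, n = 9). Its Control libraries read 12.6, 8.81, 8.91, 12.4 and 13.6% and its Susceptible libraries 9.71, 10.7, 12.02 and 8.04%, which overlap.

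In HoxB the lowest was Hoxb9, a thoracic gene, at 2.26% ± 0.651 (SD, n = 9), with 1.503, 1.67, 1.55, 2.84 and 3.37% in Control and 2.32, 2.22, 2.84 and 2.02% in Susceptible libraries. The highest was Hoxb8, known for its use in precursors of a subset of microglia and for the excessive grooming of its mutants, at 8.79% ± 2.79 (SD, n = 9). Control libraries read 7.52, 6.93, 5.79, 7.59 and 14.4%, and Susceptible libraries read 6.10, 10.6, 9.38 and 10.8%. Control 8 was the highest of all, and the groups overlapped. By the strand that the other genes of the cluster share, the windows of Hoxb3 and Hoxb2 would move from 8.62 to 24.0% and from 3.51 to 10.9%, so Hoxb3 would then be the highest. That reading was added after the values were seen.

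In HoxC the lowest was Hoxc8, a gene of forelimb motor neuron pools, at 2.44% ± 1.02 (SD, n = 9). It read 2.66, 1.67, 0.997, 4.54 and 1.93% in Control and 2.25, 3.39, 2.36 and 2.19% in Susceptible libraries. The highest was Hoxc6, also a gene of forelimb-level motor neurons, at 12.5% ± 3.18 (SD, n = 9), but its window lay at the CpG-richer end, and by the cluster's strand the other end applies and reads 4.91%. In HoxD the lowest was Hoxd3, needed for the first cervical vertebra, at 2.35% ± 0.897 (SD, n = 9). It read 3.07, 3.37, 1.33, 1.33 and 1.27% in Control and 2.63, 3.44, 2.79 and 1.92% in Susceptible libraries, and the groups overlapped.

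Hoxd4, a hindbrain gene that responds to retinoic acid, had the highest window of all Hox genes by the windows used here, below that of Hoxb3 by the strand of its cluster, and the fewest CpGs in it, 22. Its level was 14.96% ± 5.40 (SD, n = 9). Control 2, 3, 4, 5 and 8 read 13.2, 18.2, 9.56, 24.4 and 20.9%, and Susceptible 2, 3, 6 and 7 read 11.5, 10.5, 9.46 and 16.9%. Control 5 and Control 8, the libraries of high strand disagreement, were the highest, and the part of this disagreement in the Hoxd4 levels was not tested. The 300 bases printed for Hoxd4 read 14.8%, close to the level of the whole window.

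Genes of the 5′ side averaged lower at their starts than genes of the 3′ side when all clusters were pooled. The 16 genes of paralog groups 9 to 13 averaged 4.06% ± 0.328 (SD, n = 9), the 11 of groups 5 to 8 averaged 5.79% ± 0.465 and the 12 of groups 1 to 4 averaged 5.54% ± 0.653. The 5′ minus 3′ difference was -1.48 ± 0.611 points and negative in 9 of 9 libraries (exact sign-flip permutation test, adjusted p = 0.00977 over the 4 clusters and all genes together). The test keeps the genes fixed, so its p measures the spread between libraries and not between genes. Single genes of the sides overlapped. They ran from 2.26% (Hoxb9) to 8.28% (Hoxc9) on the 5′ side and from 2.30% (Hoxa4) to 14.96% (Hoxd4) on the 3′ side. With the strand of the cluster for every gene the pooled difference was -3.37 points and with calls summed over genes -0.746, each with the same sign and past the threshold. Group 13 (Hoxa13, Hoxb13, Hoxc13 and Hoxd13) averaged 3.07% with 133 CpGs per window, the most of any group. Group 7 (Hoxa7 and Hoxb7) averaged 7.52%, the highest by the windows used here, with 70 CpGs, and by the strand of the cluster group 3 averaged 11.1%.

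Cluster by cluster the contrast was less steady. It was -0.824 points in HoxA (adjusted p = 0.0146), -2.02 in HoxB (adjusted p = 0.0130) and -3.36 in HoxD (adjusted p = 0.00977), each by the exact sign-flip permutation test. In HoxC it was +1.02 points, with Hoxc4 the lone gene of the 3′ side (exact sign-flip permutation test, adjusted p = 0.0547). The strand of the cluster moved HoxB to -7.69 points, and summed calls gave -1.33 in HoxB, +0.499 in HoxC and -0.792 in HoxD. The HoxD value rests on Hoxd4: without it the contrast was +0.576 points. For all clusters together, leaving out Hoxd4 gave -0.624 points, still negative in the test (exact sign-flip permutation test, adjusted p = 0.0195). Over whole genes between their bounds HoxA read +0.695 points, HoxB +0.435 and HoxC -8.39, so its sign within these clusters differed between start windows and gene bodies.

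The main comparison of the study, Control with Susceptible, asks whether methylation differs between the groups after the defeat protocol. At the level of whole clusters no difference passed the test. In HoxA the Control libraries read 5.80% ± 0.662 (SD, n = 5) and the Susceptible ones 6.08% ± 0.382 (SD, n = 4), which is +0.282 points (exact permutation p = 0.492, adjusted p = 0.492). It was +0.0280 points without Control 5 and +0.108 without Susceptible 6. HoxB read 15.2, 16.4, 15.5, 14.7 and 16.7% in Control and 14.6, 14.7, 14.8 and 14.7% in Susceptible libraries. Its difference of -1.01 points had an exact permutation p of 0.0556 (adjusted p = 0.127 over the 4 clusters), with Control 5 within the Susceptible range, and it was -0.509 points without the stretch between Hoxb13 and Hoxb9 (-0.321 when Control 3 was left out as well). HoxC means were 8.54% ± 0.692 and 7.62% ± 0.535, and the -0.913 points between them did not pass (exact permutation p = 0.0635, adjusted p = 0.127). HoxD differed by -0.510 points, from 7.79% ± 0.427 to 7.28% ± 0.516 (exact permutation p = 0.143, adjusted p = 0.190), and by -0.298 points without Susceptible 7.

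In 1 alternative run of the whole-cluster test, limited to tiles of fewer than 20 CpGs, 2 clusters passed. No other alternative run over all 4 clusters brought a cluster past the threshold. The adjustment covers the 4 clusters of a run and not the number of runs. The levels of tiles of fewer than 20 CpGs sum calls over all such tiles with a listed CpG. The minimum of 3 CpGs and 20 calls was not applied to them. They cover 59 kb in HoxD and 110 kb in HoxB. Tested tiles of 3 to 9 and of 10 to 19 CpGs numbered 12 and 23 in HoxD and 24 and 45 in HoxB. The groups were not compared over the tested tiles alone. HoxD tiles of fewer than 20 CpGs read 29.6, 29.0, 28.6, 31.4 and 31.0% in Control and 27.5, 27.5, 25.4 and 23.9% in Susceptible libraries. Every Susceptible library lay below every Control library, by -3.82 points in the mean (exact permutation p = 0.00794, adjusted p = 0.0317). HoxB tiles of that kind differed by -2.69 points (exact permutation p = 0.0238, adjusted p = 0.0476), from 43.8% ± 1.44 (SD, n = 5) to 41.1% ± 0.365 (SD, n = 4). With 1 library left out, HoxD gave -3.08 points (without Susceptible 7) to -4.31 (without Susceptible 3) with the groups apart each time, and HoxB gave -2.37 to -3.29. Both passed only without Control 5 (exact permutation tests, adjusted p = 0.0381) and not without any other library (adjusted p of 0.0714 to 0.114 in HoxD and 0.0714 to 0.143 in HoxB), where fewer libraries also raise the smallest p that can be reached, and without Control 5 HoxC passed too (-2.58 points, the same p). Tiles of 20 or more CpGs gave +0.0481 points in HoxD and -0.202 in HoxB, and neither passed (exact permutation adjusted p = 0.897 and 0.762). Both changed sign with 1 library left out, to -0.148 in HoxD without Susceptible 3, -0.142 there without Control 5 and +0.0527 in HoxB without Control 8. The flanks were lower in Susceptible libraries as well, by -2.45 points beside HoxA, -1.29 beside HoxB, -2.68 beside HoxC and -1.54 beside HoxD, as was the level of autosomes and X together by -0.608 points (exact permutation p = 0.270). Without Susceptible 7 the HoxB flanks gave -0.447 points and autosomes and X -0.184, against -0.940 without Susceptible 6. Without Control 5 the flanks gave -0.771 points beside HoxB and -0.752 beside HoxD. Start windows of glial markers moved the same way: 0 of 4 astrocyte genes were higher in Susceptible libraries (median difference -4.95 points, library means over the 4 genes 59.7 to 65.6% in Control and 47.0 to 61.7% in Susceptible), and 0 of 4 microglia genes (median -1.65 points, 82.9 to 88.3% and 82.6 to 85.2%). The astrocyte shift rests on Susceptible 7: without it 1 of 4 was higher, the median was -1.55 points and the other Susceptible libraries read 60.6 to 61.7%. The microglia median was -0.680 points without Control 2 and -0.993 without Control 5, each with 2 of 4 higher. Of oligodendrocyte genes 2 of 4 were higher and of striatal genes 4 of 8, 0 of these genes were called, and the part of cell makeup in the HoxB and HoxD differences was not tested. With equal weight on the CpGs that all 9 libraries list, HoxB as a whole gave +0.127 points, the other sign.

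**Figure D4:**
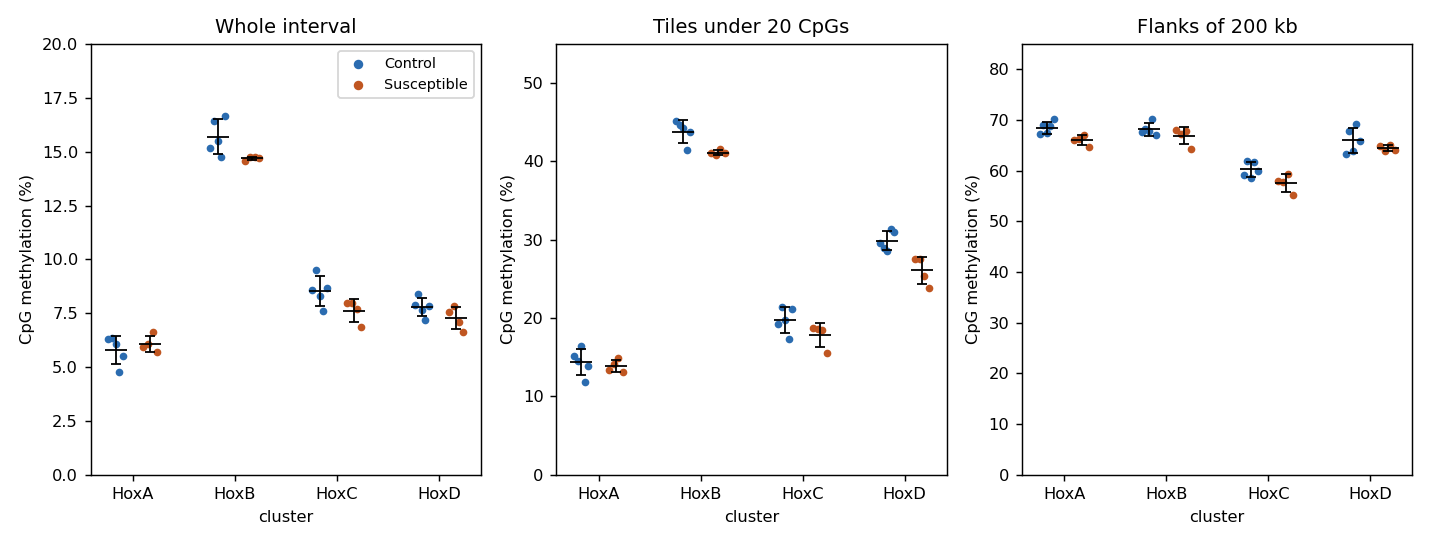
CpG methylation (%) of each cluster as a whole, in its tiles of under 20 CpGs (tested or not) and in its flanks of 200 kb, with a point for each Control (blue, n = 5) and Susceptible (orange, n = 4) library and the group mean ± 1 SD in black. In the tiles of under 20 CpGs the HoxD libraries separate by group, 28.6 to 31.4% against 23.9 to 27.5%, and the whole-cluster panel shows overlapping groups for all 4 clusters.

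No start window of a Hox gene was called between the groups. In the quasi-binomial model with limma's variance moderation 0 of 39 passed an adjusted p of 0.05 (0.0% of all genes), 0 had an unadjusted p under 0.05 (4.86% of all genes), and 0 had groups that did not overlap (1.93% of all genes). limma on logit levels also called 0, with 0 at an unadjusted p under 0.05 (3.88% of all genes). The mean was higher in Susceptible libraries for 25 of 39 genes, against 48.3% of all genes, and the median difference was +0.168 points. This lean turned with the window: with 2000 bp on each side 15 of 39 were higher, against 41.5% of all genes (median -0.189 points), and with 500 bp 20 of 39, against 56.5% (median +0.0304 points). Leaving out 1 library gave 0 to 3 genes at an unadjusted p under 0.05, the 3 without Control 4 (7.69%, against 5.94% of all genes), and 0 to 2 genes without overlap, the 2 without Control 5 (5.13%, against 3.80%), with 0 called.

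The genes of smallest unadjusted p were Hoxc9, Hoxc6, Hoxa2, Hoxd4 and Hoxa3, and each had an adjusted p of 0.936 in that model. Hoxc9, which sets thoracic motor neuron identity, read 7.02, 9.70, 7.49, 15.3 and 9.65% in Control and 7.15, 5.56, 7.64 and 5.09% in Susceptible libraries. The groups overlapped, and the difference was -3.46 points (unadjusted p = 0.0534). Hoxc6 read 13.8, 19.3, 12.7, 10.7 and 13.4% in Control and 9.98, 11.5, 7.96 and 13.5% in Susceptible libraries, a difference of -3.28 points (unadjusted p = 0.0736). For Hoxd4, with the values given above, the difference was -5.16 points (unadjusted p = 0.123). Single libraries moved these values: Hoxc9 gave -2.10 points without Control 5, Hoxc6 -1.95 without Control 3 and Hoxd4 -3.38 without Control 5, and none was called with a library left out. These 3 genes also had the widest ranges over libraries, 10.2 points for Hoxc9, 11.3 for Hoxc6 and 14.9 for Hoxd4.

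Hoxa2, which patterns the hindbrain and the second pharyngeal arch, read 3.02, 0.994, 2.59, 2.46 and 2.91% in Control and 3.90, 3.39, 5.58 and 2.09% in Susceptible libraries. Susceptible 2, 3 and 6 lay above every Control library and Susceptible 7 did not, and the difference was +1.35 points (unadjusted p = 0.0796), or +0.732 without Susceptible 6. Hoxa3, needed for thymus and parathyroid, read 7.86, 7.56, 5.50, 8.78 and 9.11% in Control and 6.60, 6.72, 6.25 and 5.22% in Susceptible libraries. Control 4 fell among the Susceptible values, and the difference was -1.56 points (unadjusted p = 0.143).

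Tiles gave the same count of calls. In the quasi-binomial model with limma's variance moderation 0 of 416 Hox tiles were called (0.0% of all tiles, lowest adjusted p = 0.997), and limma on logit levels called 0. At an unadjusted p under 0.05 stood 22 Hox tiles, which is 5.29% against 4.38% of all tiles. Of these, 9 were higher in Susceptible libraries, or 2.16%, and 13 lower, or 3.12%, against 2.18% and 2.19% of all tiles. The count was 9 by limma (2.16%, against 3.25% of all tiles) and 14 without Control 8 (3.37%, against 4.42%). With the log of listed calls as a covariate it was 28 (6.73%, against 4.85%), of which 4 were higher and 24 lower. Without Control 5 it was 29 (6.97%, against 5.16%), of which 8 were higher and 21 lower. All tiles were not split by direction with the covariate or without Control 5, so these leans cannot be set against the genome. Groups did not overlap in 8 tiles (1.92%, against 1.56% of all tiles), 4 higher (0.598% of all tiles) and 4 lower (0.96% of all tiles), and the mean was higher in Susceptible libraries in 208 of 416, against 47.6% of all tiles. Fewer libraries leave more tiles without overlap: there were 15 without Susceptible 2 (3.61%, against 2.82% of all tiles), 16 without Susceptible 6 or Susceptible 7 (3.85%, against 2.69% and 2.98%), 18 without Control 2 or Control 4 (4.33%, against 3.42% and 3.36%) and 21 without Control 5 (5.05%, against 3.06%). The Hox share was below that of all tiles in the other 3 cases, with 12 without Control 3 (2.88%, against 3.34%), 12 without Susceptible 3 (2.88%, against 2.93%) and 11 without Control 8 (2.64%, against 2.99%). The Hox shares thus lay above or below those of the genome by setting, and none of the tiles was called in these settings.

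The tiles of smallest p lay in HoxC and at the 5′ end of HoxD. In Hoxc5, in the tile that starts just past the Mir615 hairpin (chr15:103015001-103016000), Control libraries read 21.9, 22.1, 22.2, 12.5 and 30.6% and Susceptible libraries 15.02, 14.6, 9.32 and 15.9% (difference of -8.15 points, unadjusted p = 0.00117). Control 5 lay among the Susceptible libraries there. Within Hoxc6 (chr15:103002001-103003000) they read 43.6, 39.5, 40.1, 42.0 and 54.1% against 35.7, 24.5, 32.2 and 31.5%, without overlap (-12.9 points). At the Hoxc9 start (chr15:102977001-102978000), inside the start window of that gene, they read 9.89, 12.3, 10.3, 21.9 and 17.8% against 9.80, 7.79, 8.69 and 7.39%, also without overlap (-6.03 points).

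Near Hoxc13, the hair and nail gene, a tile between genes (chr15:102931001-102932000) read 8.99, 16.7, 14.2, 18.7 and 19.9% in Control and 10.1, 10.7, 7.34 and 6.62% in Susceptible libraries (-7.01 points). Near Hoxd13, which shapes the digits, chr2:74666001-74667000 read 15.5, 17.6, 8.00, 17.4 and 27.2% in Control and 10.6, 7.06, 9.48 and 4.81% in Susceptible libraries (-9.14 points). Both overlapped, through Control 2 in the first and Control 4 in the second. All 5 were lower in Susceptible libraries. The tile without overlap that differed most in the other direction, picked with its values known, lies at Hoxb1, a gene of the fourth rhombomere (chr11:96368001-96369000). Control 2, 3, 4, 5 and 8 read 11.1, 16.5, 17.2, 0 and 5.98%, and Susceptible 2, 3, 6 and 7 read 18.8, 19.5, 24.5 and 22.0%, which is +11.1 points (unadjusted p = 0.0390). The calls of Control 5 in that tile were all unmethylated, which allows a level of up to 2.38% by counting error alone. Of the 79 cases in which a library had no methylated call in a tested Hox tile, 34 were in Control 5 and 31 in Control 8, the libraries of high strand disagreement, and the part of that disagreement in the tile differences was not tested.

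**Figure D5:**
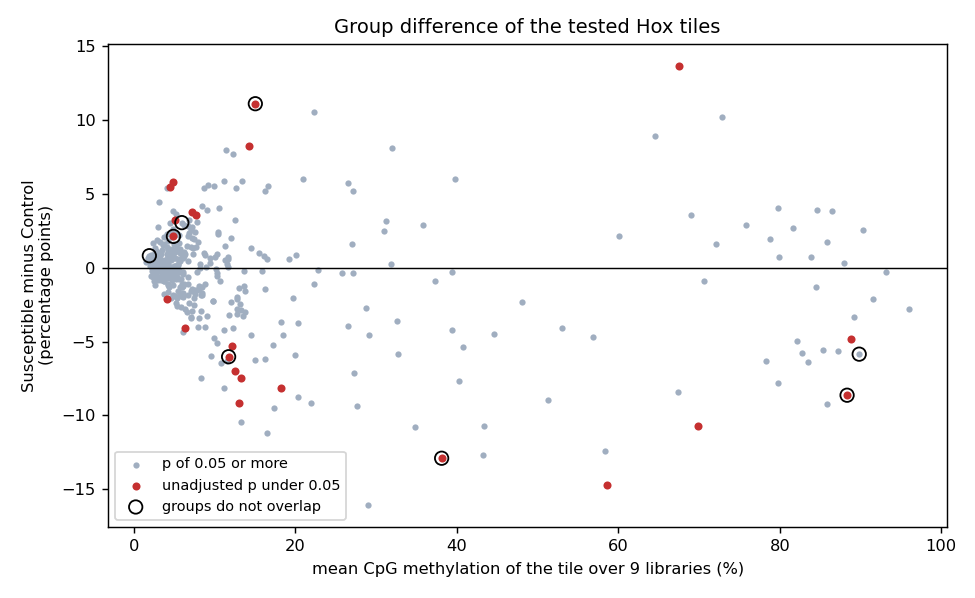
Difference between group means (Susceptible minus Control, percentage points) against the mean level (%) of each of the 416 tested Hox tiles, with tiles of unadjusted p under 0.05 in red and tiles whose groups do not overlap circled. The 22 red tiles lie on both sides of 0, 9 above and 13 below, and most tiles crowd at low levels and small differences.

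No difference between groups passed in the 5′ to 3′ contrast either: Control libraries gave -1.69 ± 0.756 points (SD, n = 5) and Susceptible ones -1.22 ± 0.274 (SD, n = 4), which is +0.464 apart (exact permutation p = 0.286). It was +0.0360 without Hoxd4 and +0.166 without Control 8, and no library left out brought it past the threshold.

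Genes that act with or upon Hox genes were read in the same windows. The 9 cofactor genes of the Meis, Pbx and Pknox families, whose products bind DNA together with Hox proteins, all read under 10%, from Meis2 at 0.915% to Pknox2 at 5.56%, with 0 called. Pbx3 had the smallest p among them (+0.470 points, unadjusted p = 0.0650). The windows of Pbx3 and Pknox2 lie at the CpG-richer end. Of 9 related homeobox genes, 6 were under 10%, from Mnx1 at 2.20% to Cdx1, an activator of Hox genes, at 28.7% in a window at the CpG-richer end. Cdx1 also had the smallest p of this list (-3.47 points, unadjusted p = 0.0247, adjusted p = 0.936 in the quasi-binomial model with limma's variance moderation). Of 15 Polycomb group genes, which keep Hox genes silent, 14 were under 10%, from Jarid2 at 0.916% to Ezh1 at 11.4%, and 0 were called. Ring1 had the smallest p of them (+1.32 points, unadjusted p = 0.0624), at +0.798 without Susceptible 6. The 3 opposing regulators read from 1.43% at Kmt2a to 42.4% at Kdm6b, and the latter is a window at the CpG-richer end. Kmt2a also had the smallest p (+0.444 points, unadjusted p = 0.160).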

How the data were processed

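Per the file headers, each library's file lists cytosines of CpGs by strand with a count of calls and 2 columns of percent, C and T. The count is a whole number and not normalised, and the authors deposited no cytosine under 10 calls. The submitters' processing notes name Picard, Bismark, Bowtie and mm10, with no role or version. Per the labels, DNA came by a Qiagen micro kit with RNase and libraries by the Zymo Pico Methyl-seq kit. Nothing in the labels says how reads were trimmed or repeated reads removed.

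Methylated calls were recovered as count times percent of C, whole within rounding at every cytosine. The strands of a CpG were added, and the first of repeated entries was kept (4 in Control 5 and 8 in Control 8). No column was left unmapped. In HoxA, 1 gene enters the counts and pooled levels but is not reported by itself here. Autosomes and X were used. A level is methylated over all calls per library. Gene bounds, starts and sequences came from RefSeq GRCm38.p6 tables, without exons or, for 17 Hox genes, strand. The planned fallback for those was the gene end with more CpGs. Every CpG of the printed promoters fell on a listed position except 2 of Hoxd3, and no listed position fell outside a CpG there.

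Tiles (1000 bp) and start windows (1000 bp each side) holding 3 CpGs and 20 calls or more per library were tested across the genome with a quasi-binomial model of methylated and unmethylated calls, with Pearson dispersion moderated as limma's squeezeVar does, floored at 1, an F test of group and Benjamini-Hochberg adjustment over all tiles or genes, with a threshold of 0.05. The model was tested on simulated data. Cluster levels were compared with two-sided exact permutation tests of the library labels (smallest p 0.00794), and contrasts within libraries by exact sign flips. The 9 samples are taken as 1 mouse each, as labels give no other source, and p-values measure the spread between them. No batch is labelled. The tools were Python 3.11.15, numpy 2.4.6, pandas 2.3.3, scipy 1.17.1, R 4.3.3 and limma 3.58.1.

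Genes named are the highest and lowest of each cluster, the 5 of smallest p, the 3 of widest range and any with groups apart. Tiles named are the 2 highest of each cluster, the 5 of smallest p and any called. The cofactor, homeobox, Polycomb and opposing lists name the highest, the lowest and the smallest p; Evx1, Evx2, Drd1 and Drd2 are named outside this rule. Members, lists (cofactors, related homeobox, Polycomb, opposing regulators, striatal, cortical, oligodendrocyte, astrocyte and microglia markers) and tests were chosen with earlier results of these data known. Alternatives covered weighting, coverage, windows, tile borders, limma, a depth covariate, a block and left-out libraries.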

Additional observations from a re-analysis of the deposited data

Results flagged for a closer look

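In 82 groups of 4 or 5 libraries, 1 library's gap to its nearest neighbour was compared with the range of the group, and 6 stood out. Chance gives about 1 in 20 for normal groups not picked by their values. Many of these groups were picked by their values and some share calls, so that rate does not hold here. Control 8 read 14.4% in the start window of Hoxb8, where the next Control library read 7.59%. Susceptible 3 read 3.39% in the window of Hoxc8, above 2.36%. Control 3 read 0.994% in the window of Hoxa2, below 2.46%.

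Among tiles, Control 8 read 54.1% in the Hoxc6 tile at chr15:103002001-103003000, above 43.6%. Susceptible 6 read 7.96% in a Hoxa3 tile at chr6:52170001-52171000, above 5.61%. Control 3 read 86.957% in a tile between Hoxb13 and Hoxb9 at chr11:96247001-96248000, below 92.969%.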

How the results depend on the processing

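The pooled 5′ to 3′ contrast, the flanks and the counts of called Hox genes kept direction and side of the threshold under each alternative run. Group differences of whole clusters turned sign in HoxB over CpGs listed in all libraries (+0.127 points), in HoxA with at least 20 calls per cytosine (-0.0444), without Control 5 and 8 (-0.158) and in tiles under 20 CpGs (-0.483), and in HoxD in tiles of 20 or more (+0.0481). In tiles under 20 CpGs, tested or not, HoxB (-2.69) and HoxD (-3.82) passed. Without the stretch between Hoxb13 and Hoxb9, HoxB minus HoxC was -0.860 and HoxB minus HoxD -0.298 points. The cause of these changes was not tested, apart from that stretch.

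Within clusters the 5′ to 3′ contrast over CpGs listed in all libraries no longer passed in HoxA (-0.320), HoxB (-1.13) and HoxD (-2.36) and turned in HoxC (-0.834). With at least 20 calls per cytosine HoxA (-0.993) no longer passed and HoxC (+2.03) passed. With windows of 2000 bp HoxA turned (+0.280), HoxB (-0.477) no longer passed and HoxC (+1.02) passed. HoxC turned against groups 1 to 8 (-1.27). Over whole genes HoxA (+0.695), HoxB (+0.435) and HoxC (-8.39) turned, as did the group difference of the pooled contrast (-0.0419). HoxD without Hoxd4 turned (+0.576). Leaving out each library gave +0.536 to +1.19 points in HoxC, which passed without Control 5 or Susceptible 7, and 0 to 1 called tiles in the genome, the 1 without Control 4.

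Numbers 2 and 3 occur in both groups, and the labels do not say whether same-numbered libraries were handled together. Their deviations correlated at 0.0258 and -0.0171 over 1041809 tiles. Pairs of unlike numbers gave -0.0954 to +0.132, so correlations of this size cannot decide whether the numbers mark pairs. With a replicate block over these 2 pairs HoxA turned (-0.317 points), and 0 tiles were called. The same 4 libraries without the block gave 1 Hox tile and 107 tiles in the genome. A block of 2 pairs cannot give an exact p under 0.5 for a cluster.

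With 4 and 5 libraries small shifts are beyond these data, and 121 Hox tiles had too few CpGs or calls.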
